A study of Oryctolagus cuniculus with 8 samples.

Results

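The SP cells of the rabbit limbal epithelium, where SP is the usual short form of side population in such a dye sort, were taken on their own, by their label, as 4 of the 8 RNA libraries of the study. The other 4 libraries hold the NSP cells of the same tissue, the other sort fraction. All cells came from New Zealand white rabbits, were labelled limbal epithelial cells, and were separated with the dye Hoechst 33342, and total RNA was sequenced on an Ion Proton instrument. No treatment, genotype, age or day of sorting is given, and the labels do not say whether the 4 SP libraries came from separate animals, so the spread between them may be biological or technical. The table names the group of each column but not the sample, and the SP libraries are therefore numbered 1 to 4 in column order, which carries no meaning. No value was tested, because the 4 libraries form 1 group, and the text describes which genes were abundant in SP and which genes differed together from library to library.

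Hoechst 33342 is pumped out of cells by ATP-binding cassette (ABC) transporters, and a side population is the set of cells that keep little of the dye. ABCB1 (P-glycoprotein) and ABCG2 are the transporters best known for this. The limbus is the vascularised border between cornea and conjunctiva. Besides the basal epithelial cells that renew the cornea it holds melanocytes, resident lymphocytes, antigen-presenting cells, nerve and blood vessels, and several of these cell types outside the epithelium are known to carry ABC transporters. A sort on dye efflux can therefore collect more than 1 cell type. In bulk RNA of this kind, fewer cells of a type and less RNA per cell cannot be told apart.

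The SP libraries held 15553295 to 18931836 reads in exons, against 20445565 to 23529101 in the NSP libraries. Levels are given as counts per 1000000 exon reads (CPM) after scaling the 4 libraries to each other, and 9568 of 20922 gene entries with a mean of at least 1 CPM were called measured. Libraries 1 and 4 were the least alike, with a Spearman correlation across genes of 0.83, and libraries 1 and 2 the most alike, with 0.923. Genes are not independent replicates, and these coefficients are descriptions; among the NSP libraries they lay between 0.936 and 0.973. Libraries 1 and 4 also differed along the exon length of the genes. In the lowest of 3 equal bins of genes by length, the median log2 level relative to each gene's own mean was -0.02 in library 1 and 0.12 in library 4, and in the highest bin it was 0.16 and -0.05. The part of this in the differences described below was not tested.

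The range of a gene is used here as the measure of spread, and is its highest library divided by its lowest, each after adding 0.5 CPM. Over the 4 SP libraries 2725 of 9568 measured genes, 28.5%, had a range of at least 4-fold, and the median range was 2.53-fold. Over the 4 NSP libraries the same count was 745 of 9082 genes, 8.20%, and the median range was 1.74-fold. In SP the range is thus a property of many genes, and the lists below are read against that background. Library 4 was the highest of the 4 for 34.3% of measured SP genes, library 1 for 30.0%, library 2 for 17.9% and library 3 for 17.7%. It was also the lowest of the 4 for 32.3%, against 26.3% for library 1, 24.7% for library 3 and 16.6% for library 2. Of the 2725 genes with a 4-fold range, 1098, 560, 372 and 695 were highest in libraries 1 to 4, and 646, 319, 734 and 1026 were lowest. Among them 700 were highest in library 1 and lowest in library 4, 453 were highest in library 4 and lowest in library 1, and 360 were highest in library 2 and lowest in library 3.

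**Figure D1:**
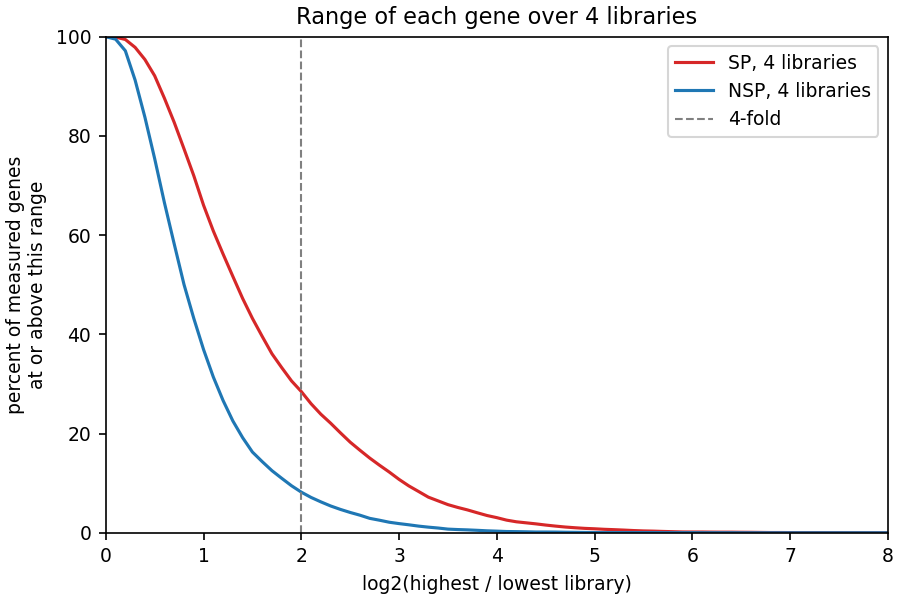
Percent of measured genes (vertical axis) whose log2 ratio of highest to lowest library is at or above the value on the horizontal axis, for the 4 SP libraries (red) and the 4 NSP libraries (blue). At the dashed line, which marks 4-fold, the curves stand at 28.5% and 8.20%.

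The 6 marker genes of the cell types in question were all detected in each SP library. ABCB1, the efflux pump, stood at 809, 1205, 1927 and 1171 CPM in libraries 1 to 4, with a mean of 1278 ± 468 (SD, n = 4). Its range of 2.38-fold was just below the median range of all measured genes. It ranked 99th of all entries by reads. VWF, the von Willebrand factor of endothelial cells and platelets, stood at 612, 2357, 2374 and 7794 CPM, with a mean of 3284 ± 3118 (SD, n = 4). Libraries 2 and 3 were nearly equal, library 4 was far above them and library 1 far below, and without library 4 the mean was 1849 CPM. CCL5, a chemokine stored and secreted by memory T cells and NK cells, stood at 1425, 3865, 5617 and 2513 CPM, with a mean of 3355 ± 1809 (SD, n = 4). Here library 3 was the highest and library 1 again the lowest.

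PMEL, which forms the fibrils on which melanin is laid down in melanosomes, stood at 3458, 491, 2228 and 1272 CPM, with a mean of 1862 ± 1279 (SD, n = 4). Library 1, the lowest for VWF and CCL5, was the highest for PMEL, and library 2 was the lowest. COL1A2, a chain of type I collagen made by stromal fibroblasts, was low, at 47.6, 57.5, 90.2 and 52.0 CPM, with a mean of 61.8 ± 19.4 (SD, n = 4). Its range of 1.89-fold was the narrowest of the 6. KRT15, a keratin of basal limbal epithelial cells, stood at 163, 47.1, 65.2 and 2103 CPM, with a mean of 594 ± 1007 (SD, n = 4). The mean of KRT15 describes no library: library 4 alone carried most of its reads, and without it the mean was 95.3 CPM (the NSP libraries held 11232 to 17442 CPM, scaled among themselves).

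**Figure D2:**
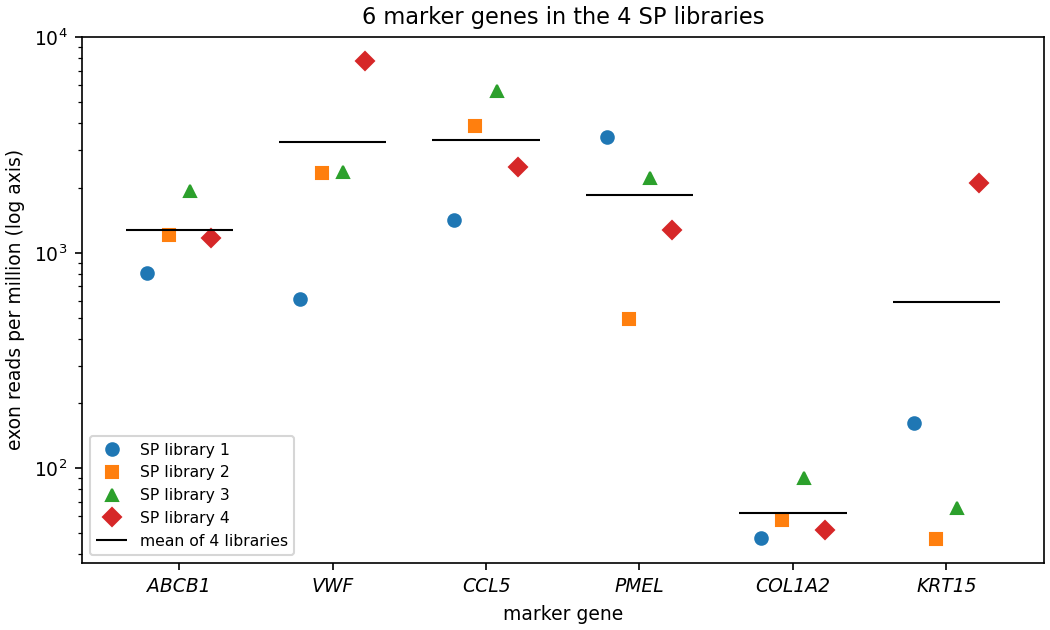
Level of the 6 marker genes (horizontal axis) in CPM on a log axis, with 1 point for each SP library and a line at the mean of the 4. ABCB1 and COL1A2 stay within 2.38-fold, VWF spans 12.7-fold and KRT15 spans 44.2-fold, with library 4 alone at 2103 CPM.

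Compared per exon length, which is needed to set genes beside each other, CCL5 led the markers with a mean of 5292 CPM per kilobase of exon and was 7th of all entries. PMEL had 876 CPM per kilobase and was 107th, and VWF had 381 and was 244th, with an exon length of 8613 bases. KRT15 followed with 345 CPM per kilobase at rank 279, and ABCB1 with 279 at rank 328. COL1A2 had 13.1 CPM per kilobase and was 4245th. The mean of KRT15 here rests on library 4, as above.

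Around the markers, the top of the ranking per length was held by genes used in nearly all cells. The 20 named genes with the highest mean CPM per kilobase included 8 ribosomal protein genes, the elongation factor EEF1A1 (12670.2 CPM per kilobase), ubiquitin B (UBB, 5606) and cyclophilin A (PPIA, 4696). The calcium-binding S100A6 (7408 CPM per kilobase) and the lipid-binding annexin ANXA1 (5016) also stood there. Ribosomal protein genes, EEF1A1 and the heat shock cognate HSPA8 have near-identical copies in mammalian genomes, so their levels are uncertain. The entry with the highest level per length of all had no usable name. Only 1 of the 20 had a 4-fold range: IGJ, the older symbol of the J chain that joins IgA and IgM molecules made by plasma cells, with 4244 CPM per kilobase.

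While IGJ was highest in library 1, another of these top genes set library 4 apart. B2M, the light chain of all MHC class I molecules and present on nearly every nucleated cell, stood at 4553, 4501, 4420 and 1145 CPM. The first 3 libraries were nearly equal and library 4 was 3.97-fold below the highest. Among 48 measured ribosomal protein genes, a list added after the data had been seen, the summed level was 44957, 54727, 77792 and 64924 CPM. Library 3 was the highest for 32 of the 48, against 17.7% of all measured genes. A 4-fold range was found in 1 of the 48, against 28.5%, and the median range was 1.93-fold, against 2.53-fold over all measured genes. The genes of this list did not move as 1 block in library 4: their log2 levels relative to their own means ran from -1.36 to 0.74 there. RPS3A, at 2795, 3017, 4695 and 1358 CPM, was lowest in library 4, and RPL3, at 3694, 5054, 6699 and 8514 CPM, was highest there.

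The 10 most read genes took 8.73, 8.50, 8.91 and 9.24% of the exon reads of libraries 1 to 4, and the 100 most read took 26.1, 26.1, 28.8 and 29.5%. By this measure the 4 libraries were alike in how strongly a few genes dominated, while they differed in which cell-type genes were high.

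Of 23 lists of cell-type and response genes, summed over their members, 11 had their highest sum in library 4, 6 in library 3, 4 in library 1 and 2 in library 2. A sum is dominated by its most abundant members, so for several lists the number of members that share the direction is given beside it. Where no such number is given, the order of the sum need not be that of its members.

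**Figure D3:**
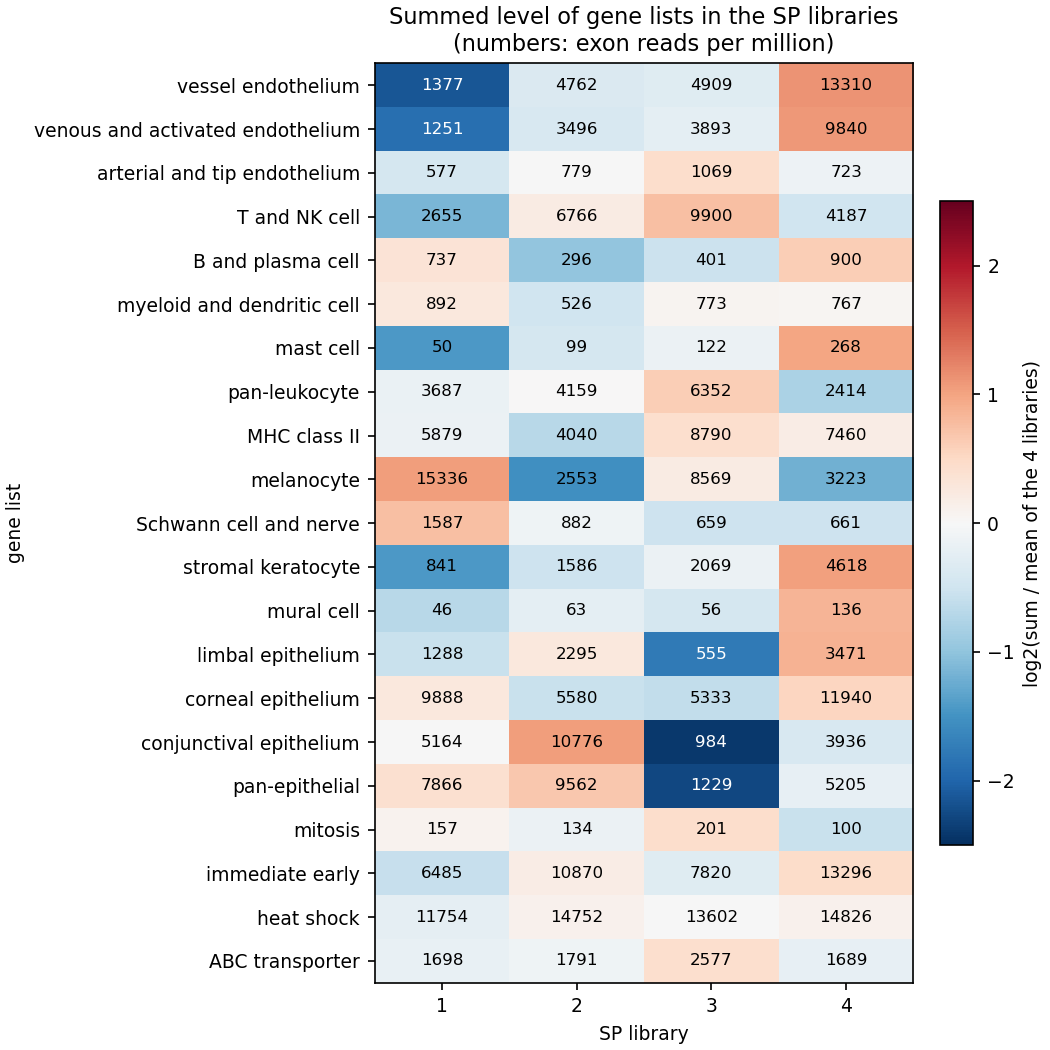
Summed level of each gene list in each SP library (numbers, in CPM), coloured by the log2 ratio to the mean of the 4 libraries. Lists with a mean under 50 CPM are left out; the vessel and the venous list are highest in library 4, the T and NK cell list in library 3, the melanocyte list in library 1 and the conjunctival and pan-epithelial lists in library 2.

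Genes of blood vessel endothelium summed to 1377, 4762, 4909 and 13309.8 CPM in libraries 1 to 4. All 14 measured members were lowest in library 1, where 26.3% of all measured genes were lowest, and 13 of the 14 were highest in library 4, where 34.3% of all measured genes were highest. A range of at least 4-fold was found in 13 of the 14, against 28.5% of all measured genes, with a median of 8.89-fold over the members. VWF made up 44.5 to 58.6% of the sum, and the other members together still spanned 7.22-fold, from 764 CPM in library 1 to 5516 CPM in library 4. PECAM1, the adhesion molecule CD31 of endothelial junctions, stood at 234, 678, 633 and 1234 CPM. ESAM, another junction molecule, stood at 56.0, 243, 265 and 757 CPM. MMRN2, a matrix protein of vessel walls, stood at 87.3, 314, 404 and 1028 CPM. NOS3, the nitric oxide synthase of endothelium, stood at 8.87, 24.1, 33.6 and 194 CPM. The growth factor receptor KDR (10.99 to 126 CPM), the angiopoietin receptor TEK (50.99 to 237 CPM) and the cadherin CDH5 (16.5 to 146 CPM) had the same lowest and highest libraries. The exception was EMCN, a sialomucin of capillary and venous endothelium, at 134, 237, 363 and 246 CPM, which was highest in library 3.

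Genes of venous and activated endothelium summed to 1251, 3496, 3893 and 9840.3 CPM. Of the 7 measured members 6 were lowest in library 1, against 26.3% of all measured genes. SELP, the P-selectin that endothelium and platelets store with VWF, stood at 894, 2026, 2687 and 7140 CPM. ACKR1, the chemokine-binding receptor of venules, stood at 122, 472, 467 and 1233 CPM, and the water channel AQP1 at 119, 704, 641 and 1296 CPM. All 3 had library 1 lowest and library 4 highest, as VWF did. SELE, the E-selectin of activated endothelium, was in 3 libraries between 27.2 and 71.4 CPM and in library 1 at 1.77 CPM. IL1R1, the interleukin-1 receptor, followed another order, at 96.7, 197, 22.3 and 64.6 CPM. The ratio of the blood vessel sum to the venous sum stayed between 1.10 and 1.36 in the 4 libraries, while the vessel sum spanned 9.67-fold and the venous sum 7.87-fold. Both ranges rest on libraries 1 and 4: the vessel range was 2.54-fold without library 1 and 3.57-fold without library 4, and the venous range 2.56-fold and 3.11-fold.

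The arterial and tip cell list was low and mixed, with 577, 779, 1069 and 723 CPM. In libraries 1 to 3 most of its sum came from the chemokine receptor CXCR4 (384, 538, 865 and 242 CPM), which lymphocytes carry too. HEY1, a Notch target, stood at 132, 145, 108 and 325 CPM and was highest in library 4, whereas EFNB2, the arterial ephrin, was nearly equal in all libraries, at 34.3, 37.2, 37.7 and 38.2 CPM. DLL4, the Notch ligand of arterial and tip cells, stood at 13.3, 38.3, 39.5 and 90.8 CPM, in the order of VWF. Lymphatic genes were scarce, with sums of 27.5, 13.3, 18.3 and 40.4 CPM. RELN, a secreted protein of lymphatic endothelium and nerve, was the most abundant member, at 26.6, 0.05, 6.79 and 9.35 CPM, and was highest in library 1. PROX1, the transcription factor of lymphatic endothelium, was at 0.80 CPM in library 1 and between 8.50 and 9.999 CPM in the other 3. Library 1 had no read of LYVE1 or MMRN1, which allows up to 0.172 CPM by counting error alone. Markers of mural cells, which wrap vessels, were scarce as well: the list summed to 46.4, 63.3, 55.6 and 136 CPM, DES had no read in any SP library, and the pericyte receptor PDGFRB stood at 1.499 to 5.25 CPM. The smooth muscle genes MYH11 (19.6, 17.0, 6.29 and 10.7 CPM) and ACTA2 (2.35, 4.66, 5.33 and 5.54 CPM) and the channel subunit ABCC9 (3.26, 0.70, 9.20 and 3.52 CPM) were low in each library. The actin-binding TAGLN, at 7.04, 30.7, 21.2 and 96.2 CPM, gave most of the mural sum in library 4; its close paralog makes this level uncertain.

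Genes of T and NK cells summed to 2655, 6766, 9900 and 4187 CPM. Of 16 measured members, 12 were highest in library 3, where 17.7% of all measured genes were highest. In library 1, 11 were lowest, against 26.3% of all measured genes. A 4-fold range was reached by 6 of the 16, not far from the 28.5% of all measured genes, with a median of 3.49-fold over the members. ITGAE, the integrin CD103 that holds tissue-resident T cells to epithelium, stood at 402, 863, 1343 and 535 CPM. ZAP70, the kinase of the T cell receptor, stood at 215, 365, 552 and 204 CPM. PRF1, the pore-forming perforin of cytotoxic cells, stood at 51.5, 242, 460 and 71.2 CPM, and CD8A at 56.0, 254, 257 and 63.6 CPM. Both PRF1 and CD8A were high in libraries 2 and 3 and low in libraries 1 and 4. TBX21, a transcription factor of cytotoxic and helper T cells, had another order, at 67.5, 113, 129 and 216 CPM, and SH2D1A, a signalling adaptor of T and NK cells, was highest in library 1, at 16.4, 14.5, 5.43 and 6.69 CPM. The chemokine receptor CXCR6 stood at 125.2, 440.2, 757 and 298 CPM. In human and mouse this gene lies inside another, FYCO1, and reads of overlapping genes can be shared, so its level is uncertain. CD3D, CD3E and CD3G had no usable name and were not analysed here.

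Genes shared by all leukocytes summed to 3687, 4159, 6352 and 2414 CPM. Of the 13 measured, 12 were highest in library 3, against 17.7% of all measured genes. In library 4, 9 were lowest, against 32.3% of all measured genes. PTPRC, the leukocyte common antigen CD45, stood at 262, 282, 357 and 86.7 CPM, and LAPTM5, a lysosomal protein of blood cells, at 846, 1295, 1876 and 693 CPM. LCP1, an actin bundler of leukocytes, stood at 842, 888, 1277 and 376 CPM, and CORO1A, another actin regulator, at 256, 274, 396 and 264 CPM. ARHGDIB was nearly even, at 279, 274, 373 and 356 CPM. Library 3 was the top of both the T cell and the leukocyte lists, whereas the bottom was library 1 for the first and library 4 for the second.

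B and plasma cell genes took another order, with sums of 737, 296, 401 and 900 CPM. Of 9 measured members 7 were highest in library 1, against 30.0% of all measured genes, and 8 had a 4-fold range, against 28.5%. MS4A1, the antigen CD20, stood at 16.7, 1.12, 8.30 and 1.08 CPM. The B cell kinase BLK stood at 124, 24.4, 66.6 and 73.2 CPM and the Fc receptor-like FCRLA at 84.0, 11.4, 79.5 and 43.4 CPM, and library 2 was the lowest for BLK and FCRLA. MZB1, an endoplasmic reticulum protein that aids antibody secretion, stood at 343, 222, 185 and 641 CPM. Unlike MS4A1, MZB1 was highest in library 4, and so was CD79B, a signalling chain of the B cell receptor, at 38.9, 14.8, 16.7 and 77.2 CPM. IGJ, at 14705, 2703, 2932 and 3986 CPM, was far higher in library 1 than in the other 3. With IGJ counted in the list, an alternative added after the data had been seen, the sums were 15443, 3000, 3333 and 4886 CPM.

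Genes of myeloid and dendritic cells summed to 892, 526, 773 and 767 CPM, a 1.70-fold range. The members varied more than this sum. Of 10 measured, 6 had a 4-fold range, against 28.5% of all measured genes, with a median of 4.58-fold. They shared no order: 2, 2, 4 and 2 were highest in libraries 1 to 4, against 30.0, 17.9, 17.7 and 34.3% of all measured genes. CD83 and the chemokine receptor CCR7, which mature dendritic cells and also lymphocytes carry, were the most abundant members of this list, at 353, 137, 200.2 and 251 CPM and at 311, 70.8, 216 and 241 CPM. CD14, the endotoxin co-receptor of macrophages, stood at 26.3, 64.0, 94.1 and 146 CPM. FCER1G, a signalling chain of Fc receptors, stood at 65.9, 52.1, 100.05 and 20.5 CPM. C1QA and C1QB, complement genes of tissue macrophages, had no read in any SP library. MHC class II genes summed to 5879, 4040, 8790 and 7460 CPM and were led by the invariant chain CD74 at 4299, 2749, 6263 and 6049 CPM. None of 6 members reached a 4-fold range, against 28.5% of all measured genes. The class II chain RLA-DR-ALPHA stood at 1165, 774, 1942 and 689.5 CPM, and the antigen-processing proteases LGMN and CTSS at 169.9, 295, 411 and 505 CPM and at 144.1, 156, 99.4 and 100.4 CPM. Of the mast cell list, GATA2, which endothelium also expresses, gave most of the sum, at 26.7, 85.1, 97.1 and 264 CPM, in the order of VWF. The mast cell proteases CPA3 and CMA1 stayed at or below 0.35 CPM, and MS4A2, a chain of the IgE receptor, stood at 10.4, 7.92, 22.9 and 2.30 CPM. FCER1A, another chain of that receptor, stood at 9.84, 0.37, 1.36 and 0 CPM, and HDC, which makes histamine, at 2.69, 5.57, 0.40 and 1.58 CPM.

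Genes of melanocytes summed to 15336, 2553, 8569 and 3223 CPM, the highest of the cell-type sums in library 1 while IGJ is left out of the B and plasma cell list, which with IGJ stood at 15443 CPM there. Without library 1 the mean melanocyte sum was 4724 CPM in place of 7420.3. Of 16 measured members 13 were highest in library 1, where 30.0% of all measured genes were highest. In library 2, 11 were lowest, against 16.6% of all measured genes. A 4-fold range was found in 12 of the 16, against 28.5% of all measured genes. TYRP1, an enzyme of melanin synthesis, stood at 8202, 1103, 4123 and 949.9 CPM. TYR, the tyrosinase that starts the pathway, stood at 692, 120.5, 438 and 152 CPM, and DCT, the enzyme that follows it, at 611, 81.8, 259 and 84.1 CPM. MITF, the transcription factor of the lineage, stood at 88.9, 18.5, 76.6 and 23.4 CPM. Libraries 1 and 3 were above libraries 2 and 4 in each of these 4 genes. KIT, the stem cell factor receptor, varied less, at 495, 321, 265 and 208 CPM, and the endothelin receptor EDNRB was highest in library 3, at 26.2, 23.1, 44.4 and 34.2 CPM. The melanocyte sum was 11.1 times the vessel sum in library 1, 0.54 times in library 2, 1.75 times in library 3 and 0.24 times in library 4. List sums are not scaled for exon length and cover different numbers of genes. The size of one sum against another therefore does not measure amounts of cell types, and only its change between libraries can be read.

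The Schwann cell and nerve list as a whole summed to 1587, 882, 659 and 661 CPM, and pigment cells share part of this programme through their neural crest origin. Of 9 measured members 8 had a 4-fold range, against 28.5% of all measured genes, with a median of 6.36-fold. They were split in order: 4, 2, 0 and 3 were highest in libraries 1 to 4, against 30.0, 17.9, 17.7 and 34.3% of all measured genes. S100B, a calcium-binding protein of glia, stood at 16.4, 1.71, 7.49 and 2.81 CPM and was highest in library 1, with library 3 next. The nerve growth factor receptor NGFR took the order of VWF instead, at 7.21, 22.9, 25.9 and 48.1 CPM. ERBB3 stood at 272, 361, 47.9 and 68.0 CPM, MAL at 219, 251, 39.1 and 160.3 CPM and PMP22 at 209, 78.2, 153 and 229 CPM. ERBB3 and MAL, which epithelium also expresses, held most of the list's sum in library 2 only.

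**Figure D4:**
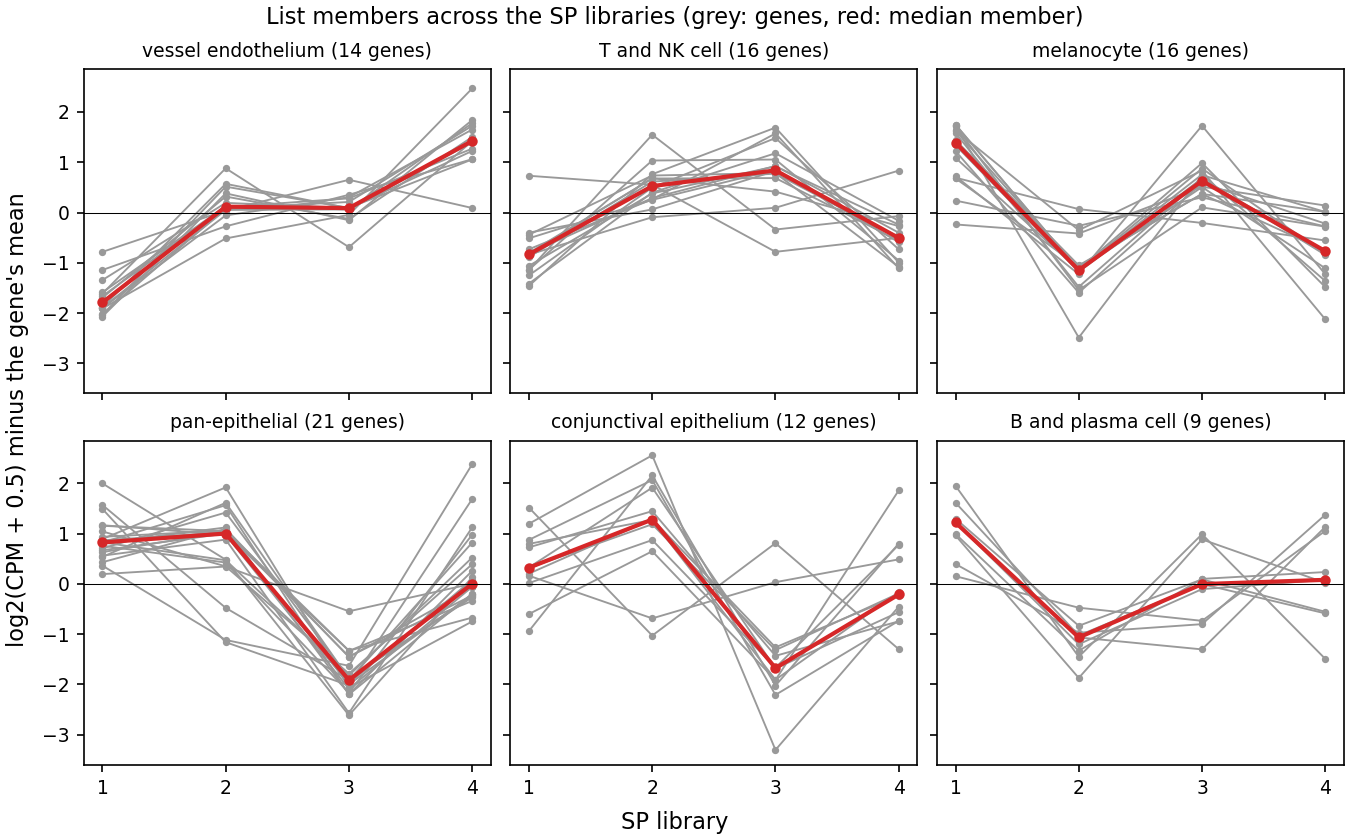
Log2(CPM + 0.5) of each measured list member minus the mean of that gene (vertical axis) in the 4 SP libraries (horizontal axis, in no order), with genes in grey and the median member in red. The 14 vessel genes are all lowest in library 1, 13 of 16 melanocyte genes are highest in library 1, and the 21 pan-epithelial genes are all lowest in library 3.

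Genes of stromal keratocytes summed to 841, 1586, 2069 and 4618 CPM, but this order came from SPARC and FN1, matrix proteins that endothelium also makes. SPARC stood at 437, 1129, 1377 and 3827 CPM and FN1 at 41.5, 126, 185 and 439.5 CPM, both in the order of VWF. Without these genes, a choice made after the data had been seen, the sum was 363, 331, 507 and 351 CPM, a 1.53-fold range. The collagen genes COL1A1 (47.0, 57.8, 80.3 and 104 CPM) and COL1A2 varied little, and the small proteoglycan DCN stood at 117.5, 117, 155.5 and 60.9 CPM. KERA, the keratan sulfate proteoglycan that defines corneal keratocytes, had reads in library 2 alone, at 0.16 CPM.

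The pan-epithelial list shared 1 lowest library throughout, as the vessel list did. It summed to 7866, 9562, 1229 and 5205 CPM, and all 21 measured members were lowest in library 3, where 24.7% of all measured genes were lowest. A 4-fold range was found in 20 of the 21, against 28.5% of all measured genes. Without library 3 the range of the sum fell from 7.78-fold to 1.84-fold. EPCAM, an adhesion molecule of simple epithelia, stood at 321, 359, 44.3 and 186 CPM, and CDH1, the epithelial cadherin, at 668, 1057, 180.4 and 471 CPM. The transcription factor ELF3 stood at 511, 1077, 95.0 and 293 CPM. SFN, the epithelial 14-3-3 protein, stood at 1086, 861, 143 and 1264 CPM, and the transcription factor EHF at 667, 1114, 81.6 and 329 CPM. GRHL2, a regulator of epithelial junctions, was the exception in size, at 199, 221, 119 and 175 CPM. Library 3, the lowest for epithelium, was the highest for T cell and leukocyte genes.

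The epithelial lists then divided by region. Conjunctival genes summed to 5164, 10776, 984 and 3936 CPM, and 9 of 12 measured members were highest in library 2, where 17.9% of all measured genes were highest. The range of the sum, 10.95-fold, was 2.74-fold without library 3 and 4.87-fold without library 2. PIGR, the receptor that carries polymeric IgA across mucosal epithelium, stood at 1983, 5092, 87.3 and 632 CPM, a range of 58.0-fold. The membrane mucin MUC1 stood at 235, 536, 27.3 and 76.5 CPM, the simple-epithelium keratin KRT8 at 519.5, 948, 167 and 365 CPM, and SPDEF, a transcription factor of goblet cells, at 1.202, 14.03, 0.30 and 5.18 CPM. MUC4, another membrane mucin, stood at 699, 974, 107 and 359.6 CPM. KRT4, the keratin partner of KRT13, stood at 740.3, 1339, 230.2 and 1254 CPM, with libraries 2 and 4 nearly equal. KRT13, a keratin of stratified mucosa, differed from these and was highest in library 4, at 130.2, 310.0, 52.2 and 718 CPM.

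Corneal genes summed to 9888, 5580, 5333 and 11940.3 CPM, and 11 of 14 were lowest in library 3, against 24.7% of all measured genes. KRT12 and KRT3, the paired keratins of the differentiated cornea, were highest in library 1, at 4032, 309, 158 and 665 CPM and at 961, 60.6, 40.8 and 350.5 CPM. The chaperone CLU, at 931, 2681, 3023 and 6591 CPM, gave the largest part of the sum in libraries 2, 3 and 4 and followed the order of VWF. The glycolytic enzyme ENO1 varied little, at 1094, 1004, 1389 and 1685 CPM, and TKT, a crystallin-like enzyme of the cornea, stood at 941, 436, 329 and 674 CPM. The ratio of the conjunctival to the corneal sum was 0.52, 1.93, 0.18 and 0.33 in libraries 1 to 4. This ratio depends on CLU and ENO1, which at 3023 and 1389 CPM held most of the corneal sum of library 3. It therefore does not compare the 2 regions of epithelium alone. With the median member in place of the sum, the corneal range was 8.64-fold in place of 2.24-fold.

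Limbal genes summed to 1288, 2295, 555 and 3471 CPM. Of 12 measured members 8 were lowest in library 3, against 24.7% of all measured genes, and all 12 had a 4-fold range, against 28.5%. COL17A1, the hemidesmosomal collagen of basal cells, stood at 141, 35.1, 10.8 and 262 CPM. TP63, the transcription factor that maintains stratified epithelial stem cells, stood at 26.8, 2.09, 1.46 and 24.9 CPM, and LAMB3, a chain of basement membrane laminin, at 9.16, 9.64, 5.28 and 51.6 CPM. These basal genes were highest in library 1 or 4. LAMA3, another laminin chain, stood at 123, 157, 61.2 and 268 CPM. KRT17, a keratin of basal and stressed epithelium, was highest in library 2, at 81.6, 352, 74.8 and 217 CPM. KRT19, a keratin of limbal and conjunctival cells, and PAX6, the transcription factor of the eye surface, were highest in library 2 too, at 468, 1528, 226 and 280 CPM and at 52.2, 90.6, 5.38 and 34.2 CPM. KRT15, KRT19, PAX6 and TP63 had reads in all 4 libraries, though TP63 had only 39 and 29 reads in libraries 2 and 3. In the NSP libraries, scaled among themselves, TP63 stood at 188 to 382 CPM, PAX6 at 249 to 389 CPM and KRT19 at 181 to 441 CPM. The limbal sum ranged 6.25-fold in SP (23228 to 28805 CPM in the NSP libraries). KRT5 and KRT14 had no usable name and were not analysed here.

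Red cell genes had few reads. The haemoglobin gene HBB2 stood at 104 CPM in library 1 and had no read in the other 3, which allows up to 0.216 CPM there by counting error alone. SLC4A1, the anion exchanger of red cells, had no read in any SP library.

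The lists of cell state spanned 1.26- to 2.05-fold in sum, but their members varied more. The median member range was 2.34-fold for immediate early, 2.82-fold for heat shock and 2.97-fold for mitosis genes, against 2.53-fold over all measured genes. A 4-fold range was found in 1 of 8 heat shock and 5 of 13 mitosis members, against 28.5% of all measured genes. Immediate early genes, which are induced within minutes of stimulation or of tissue dissociation, summed to 6485, 10870.4, 7820 and 13295.5 CPM. None of 13 members had a 4-fold range, against 28.5% of all measured genes. Library 4 was the highest for 9, against 34.3% of all measured genes, and library 1 the lowest for 10, against 26.3%. FOS stood at 1126, 1991, 1689 and 2901 CPM and EGR1 at 485, 783, 503 and 1495 CPM. ATF3 stood at 2041, 3903, 2425 and 3735 CPM and the RNA-destabilising ZFP36 at 582, 817, 796 and 1491 CPM. Heat shock genes summed to 11754, 14751.5, 13602 and 14826 CPM. HSPA8 stood at 8401, 10369, 8852 and 10305 CPM and HSP90AB1, a constitutive chaperone, at 1393, 2025, 2364 and 2606 CPM. BAG3, a stress-induced co-chaperone, was highest in library 4, at 282, 635, 452 and 1106.5 CPM, and DNAJA1, a co-chaperone of HSPA8, was lowest there, at 1050.3, 1127, 1260.4 and 337 CPM. Mitosis genes were low, with sums of 157, 134, 201 and 100.1 CPM, and TOP2A, the topoisomerase of dividing cells, stood at 23.5, 24.95, 48.9 and 6.33 CPM. The spindle gene TPX2 stood at 39.9, 22.9, 40.1 and 14.3 CPM, and the mitotic kinases PLK1 and AURKB at 18.2, 13.7, 8.55 and 18.2 CPM and at 6.75, 6.43, 14.6 and 14.2 CPM.

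Among the ABC transporters ABCB1 took 47.7, 67.3, 74.8 and 69.3% of the summed level of 14 measured genes. ABCC4, an exporter of cyclic nucleotides and drugs, was next by its mean, at 319.5, 142, 143 and 82.5 CPM, and was highest where ABCB1 was lowest. In library 4 ABCF1 and ABCC1 were above it. ABCC1, a multidrug exporter, stood at 59.3, 59.4, 68.2 and 86.9 CPM. ABCE1 and ABCD3, a ribosome recycling factor and a peroxisomal transporter, were low in library 4, at 153, 72.1, 142 and 17.5 CPM and at 60.9, 42.6, 29.9 and 3.17 CPM. ABCF1, which acts in translation, was nearly even, at 132, 106.4, 131 and 143 CPM. ABCG2 had no usable name and was not analysed here. The ratio of ABCB1 to the T and NK cell sum spanned 1.71-fold over the libraries, that to the leukocyte sum 2.21-fold, that to the vessel sum 6.69-fold and that to the melanocyte sum 8.94-fold. ABCB1 alone spanned 2.38-fold, and these sums spanned 3.73-, 2.63-, 9.67- and 6.01-fold. The vessel and melanocyte sums had the widest ranges and gave the widest ratios, but in the other order. The T and NK cell ratio was narrower than the leukocyte ratio, although the T and NK cell sum ranged more. Ratios to other lists were not computed, and which cells carried ABCB1 was not tested.

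Genes whose profile was most like that of each marker were then found. Profiles were compared by the root mean square difference of log2(CPM + 0.5), each gene taken relative to its own mean, over 4 libraries and 6184 other named genes with a mean of at least 10 CPM. For VWF the nearest were ADCY4 (0.07), CHAD, COL15A1, ESAM, GPX3, FAM110D, TSKU and CADM3 (0.13), and 44 genes lay within 0.25. ADCY4, an adenylyl cyclase, stood at 50.2, 184, 189 and 564 CPM, and COL15A1, a collagen of vessel basement membranes, at 29.9, 102, 124 and 364 CPM. GPX3, a secreted glutathione peroxidase, was more abundant, at 184, 641, 624 and 1852 CPM. Of 13 other vessel list members at this level, 10 lay within 0.5 of VWF, as did 151 of the 6184 genes.

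For CCL5 the nearest were SH2D2A (0.12), CD4, ITGAE, CRTAM, CD6, MKNK1, LAT and PLEKHA8 (0.19), with 22 genes within 0.25. Within 0.5 of CCL5 lay 8 of 13 other T and NK cell list members and 233 of the 6184 genes. SH2D2A, an adaptor of activated T cells, stood at 59.5, 195, 254 and 101 CPM, and CD4, the co-receptor of helper T cells, at 6.52, 18.7, 32.9 and 11.2 CPM. LAT, the scaffold of T cell receptor signalling, stood at 29.8, 64.8, 86.9 and 49.9 CPM. For PMEL the nearest were RAB38 (0.12), TAF4B, DAAM2, SLC6A17, SH2D4A, CTSK, FABP3 and KLHDC8B (0.25), with 6 genes within 0.25. Within 0.5 of PMEL lay 6 of 14 other melanocyte list members and 45 of the 6184 genes. RAB38, a GTPase that delivers enzymes to melanosomes, stood at 25.1, 3.32, 14.7 and 7.48 CPM, and the protease CTSK at 229, 42.8, 136 and 72.9 CPM.

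ABCB1 and COL1A2 had flatter profiles with many neighbours, 165 and 303 genes within 0.25. Within 0.5 of COL1A2 lay 2 of 8 other stromal list members and 2138 of the 6184 genes, and the median difference from COL1A2 was 0.71 over these members against 0.60 over all genes. Within 0.5 of ABCB1 lay 7 of 14 T and NK cell, 6 of 13 leukocyte and 2 of 9 stromal list members. So did 1 of 14 vessel and 2 of 15 melanocyte members, and 1645 of the 6184 genes. For ABCB1 the nearest were ADAM19 (0.07), RBBP5, ZNF18, GLIPR2, MSH3, TOE1, LGALS9 and TMEM53 (0.09). ADAM19, a membrane metalloprotease, stood at 41.3, 67.6, 100.3 and 67.8 CPM, and MSH3, a DNA mismatch repair gene, at 29.1, 40.3, 59.6 and 38.3 CPM. For COL1A2 the nearest were PURA (0.02), CHN2, DUT, RPL23, DNAJC21, LTB, OGFOD1 and UCP2 (0.06), which include genes as different as a ribosomal protein and LTB, a cytokine of lymphocytes, at 60.9, 78.8, 112 and 64.9 CPM. The difference between ABCB1 and COL1A2 was itself 0.15, that between ABCB1 and CCL5 was 0.35, and that between ABCB1 and VWF was 1.16.

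KRT15 had no near neighbour. No gene lay within 0.5, and so none of the 9 other limbal list members did, and the first 8 were ZNF462 (1.11), LAMB3, AQP3, SCARF1, CACNA1C, IL7, TMEM150C and COL17A1 (1.24). AQP3, the glycerol and water channel of basal epithelium, stood at 191, 83.3, 39.0 and 471 CPM. SCARF1, a scavenger receptor of endothelium, stood at 11.6, 12.0, 16.6 and 79.1 CPM. Both share with KRT15 a maximum in library 4, at a smaller range than its 44.2-fold.

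Genes of a single library were few: 141 of 9568, 1.47%, were at least 4-fold above every other library, with 52 in library 1, 20 in library 2, 18 in library 3 and 51 in library 4. The most abundant named ones of each library are given, a selection added after the data had been seen. In library 1 they were KRT12, the purine enzyme GDA (132 CPM there and at most 29.9 CPM elsewhere), GPR115, the neuropeptide NPY (98.4 and at most 15.1 CPM), the lipocalin APOD and HBB2. In library 2 they included DMBT1, a mucosal scavenger protein, at 530.5, 2443, 93.7 and 189 CPM, and MMP7, a protease of glandular and mucosal epithelium, at 35.8, 244, 2.36 and 2.16 CPM. In library 3 they included the cytokine IL1B, at 14.02, 22.1, 104 and 7.70 CPM, and IL3RA, the interleukin-3 receptor, at 1.66, 1.499, 21.9 and 4.75 CPM. In library 4 they were the iron carrier TF (262, 554, 509 and 2276 CPM), KRT15, the basement membrane proteoglycan HSPG2 (109, 281, 343 and 1429 CPM), PEAR1, PTHLH and NOS3. The library 4 set thus held both epithelial and endothelial genes.

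The widest ranges among named genes with a mean of at least 20 CPM were those of HBB2, CAPN9, FGL2, SLC5A8, PYY, MSMB, MMP7, ATP13A5, CNOT7 and PCDH12. MSMB, a secreted protein of mucosal glands, stood at 487, 1057, 9.81 and 266 CPM, and CAPN9, a calpain of mucosal epithelium, at 30.7, 94.2, 0 and 17.0 CPM, where no read in library 3 allows up to 0.151 CPM. Both had the library order of the conjunctival list at its ends, highest in library 2 and lowest in library 3. PYY, a gut peptide hormone, stood at 0, 14.6, 23.3 and 60.5 CPM, and PCDH12, a protocadherin of endothelial junctions, at 0.97, 21.5, 13.1 and 86.3 CPM, with the extremes of the vessel list. FGL2, a fibrinogen-like protein of T cells and macrophages, stood at 277, 366, 872 and 4.68 CPM, and it too lies inside another gene in human and mouse. CNOT7, a deadenylase subunit used in most cells, stood at 105, 39.6, 47.9 and 1.22 CPM, so the wide ranges were not limited to genes of a cell type.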

How the data were processed

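The authors deposited 1 fixed-width text table with 163 fields of 8 characters in 6 stacked blocks and 20922 gene entries. It was read by character position. Headers are truncated and show the group but not the sample. Per library, 1 field was used, which holds whole numbers for all entries and was taken as the unscaled exon reads; 1 exon length per gene, equal across libraries, was used too. The other 143 per-library fields were not used here. The deposited values used are thus counts of exon reads per gene and, as the other kind of value, exon lengths in bases. No source used here names an aligner, genome build or annotation, or says how reads that fit several genes were counted.

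Names are truncated too: 10603 complete names and 313 matched to 1 RefSeq symbol (assembly mOryCun1.1, names only) were usable, and the 10006 other entries, with 10.8% of SP exon reads, were kept for totals only.

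CPM was scaled by trimmed mean of M values (TMM) over the 4 SP libraries (factors 0.894 to 1.07), and the NSP libraries were scaled among themselves. Depth sets the floor: 3 reads correspond to 0.151 to 0.216 CPM in SP. Intervals and floors cover counting error only. No 2 libraries of a group agreed within counting noise, with a chi-square per gene of at least 53.8. The named genes are the 6 markers, the 20 with the highest level per exon length (CPM divided by exon length, in place of the deposited length-scaled values), the 4 with the highest mean level in each list, 8 nearest to each marker and 10 with the widest range; the text adds further list members for their known function, chosen after their values were seen. Some genes that this rule names are not reported here, though the list sums and counts include them. All lists and members were chosen with earlier results of these data known. A value was counted as moved under an alternative when it changed by over 1 SD of the 4 libraries (levels) or over 1.5 times (shares and ranges). Scaling and range were tested on simulated counts with counting noise alone and a small set of raised genes. The real libraries differed by more than counting noise, so that test does not show how either behaves on them. Python 3.11.15, NumPy 2.4.6, pandas 2.3.3 and matplotlib 3.10.9 were used.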

Additional observations from a re-analysis of the deposited data

Results flagged for a closer look

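In 18 of the list sums and named genes, 1 SP library stood far from the other 3, its gap to the nearest of them taking most of the whole range (Dixon's criterion for 4 samples, which chance meets in about 1 of 20 groups). Many of these genes were named for a wide range or for likeness to a marker, so their number and their libraries are not read as a pattern. Over all 9568 measured genes the criterion was met by 673, or 7.03%.

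In library 4, KRT15 stood at 2103 CPM against 47.1 to 163 in the others. The next 5 genes were named for likeness to KRT15, and so for a high library 4: LAMB3 stood there at 51.6 against 5.28 to 9.64, ZNF462 at 34.5 against 5.19 to 6.18, and CACNA1C at 28.5 against 2.52 to 6.43. SCARF1 stood there at 79.1 CPM against 11.6 to 16.6, and TMEM150C at 29.1 against 4.23 to 7.70. The lymphatic gene MMRN1 stood at 7.48 CPM in library 4 against at most 0.75. The class I light chain B2M was low in library 4, at 1145 CPM against 4420.3 to 4553, and so was the translation initiation factor EIF1, at 3534 against 4412 to 4468.

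In library 1, IGJ stood at 14705 CPM against 2703 to 3986, KRT12 at 4032 against 158 to 665, and HBB2 at 104 against 0, which is also what carried the erythroid list to 106.6 CPM against at most 1.46. FCER1A, a chain of the IgE receptor, stood there at 9.84 CPM against at most 1.36, and PROX1 was low, at 0.80 against 8.50 to 9.999. In library 2, MMP7 stood at 244 CPM against 2.16 to 35.8. In library 3, the leukocyte actin regulator CORO1A stood at 396 CPM against 256 to 274, and the ABC transporter list at 2577 CPM against 1689 to 1791.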

How the results depend on the processing

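Levels of the 6 markers and sums of the vessel, T and NK, melanocyte, stromal and limbal lists moved by less than 1 SD under each other scaling and with any library left out, but this SD is itself set by the library that stands apart. Without library 4 the mean of KRT15 went from 594 to 95.3 CPM, that of VWF from 3284 to 1849 CPM, and the mean sum of the vessel list from 6089 to 3823 CPM and of the venous list from 4620.1 to 2990 CPM. Without library 1 the melanocyte sum went from 7420.3 to 4724 CPM and the erythroid sum from 27.2 to 0.78 CPM, and without library 2 the conjunctival sum from 5215 to 3306 CPM. These are all the levels and sums that moved by over 1.5 times with 1 library left out. Leaving out each library in turn gave a range of 2.54 to 9.67-fold for the vessel list, 3.36 to 6.01 for melanocytes, 2.46 to 5.49 for stroma and 2.69 to 5.69 for the limbal list, and a share of genes with a 4-fold range of 15.5 to 24.2%, the lowest without library 4 and 18.2% without library 1. With fewer libraries a range can only shrink, apart from the rescaling. The vessel range was 2.54 without library 1 and 3.57 without library 4, the melanocyte range 3.36 without library 1, the stromal range 2.65 without library 1 and 2.46 without library 4, and the limbal range 2.69 without library 3 and 4.13 without library 4. With the median member in place of the sum the melanocyte range was 3.64 and the stromal range 1.83. The share of genes past 2-fold was 66.0% and past 8-fold 10.8%. The 10 most read genes took 8.35% among named entries. Among the other lists, 259 planned values moved within these limits and 21 moved further. Of these, the venous range went from 7.87 to 2.56 without library 1 and 3.11 without library 4, the conjunctival range from 10.95 to 2.74 without library 3 and 4.87 without library 2, and the pan-epithelial range from 7.78 to 1.84 without library 3. The mast cell range went from 5.36 to 2.46 without library 1 and 2.45 without library 4, the mural range from 2.93 to 1.36 without library 4, the Schwann cell and nerve range from 2.41 to 1.47 without library 1, the leukocyte range from 2.63 to 1.72 without library 3 or library 4, and the lymphatic range from 3.03 to 2.01 without library 2. Libraries whose numbers stand for no known sample limit what can be traced, and genes near 0.2 CPM rest on about 3 reads. No paired analysis was possible because a single group was described and the columns carry no sample numbers.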
